A study of Homo sapiens with 4 samples.

Results

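The replication-dependent histone genes encode the linker histone H1 and the core histones H2A, H2B, H3 and H4. Their transcripts were read in A549, an established human lung adenocarcinoma line, with 1 array for each of 4 conditions. One array read untreated cells, the next dihydroberberine at 25 μmol/L, the next sunitinib at 2 μmol/L, and the last the combination at those same doses, each after 48 h. Berberine is a plant alkaloid and dihydroberberine its reduced form, whereas sunitinib blocks growth factor receptor kinases. All groups come from a single cell line grown in plates, and nothing in the labels gives a second culture of any group. Members were the genes whose annotated symbol was H1-1 to H1-6, or H2AC, H2BC, H3C or H4C followed by a number. This rule found 61 of the 18132 genes on the array. Each gene was read by its probe set of highest mean over the 4 arrays, and values are log2 probe set signals as deposited. With 1 array per group there is no replicate check and no test, and "higher" and "lower" compare single arrays.

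Histone genes of this class have no introns, lie mostly in clusters and are transcribed in S phase, when new DNA has to be packed into nucleosomes. Their messages normally end in a conserved stem-loop, bound by SLBP, in place of a poly(A) tail, and are degraded when DNA synthesis stops. Some members, among them H1-2, H2AC6, H2BC5, H2BC12 and H2BC21, are also known to give polyadenylated transcripts. The labelling kit named in the labels copies RNA from its poly(A) tail, so the signals here weight the polyadenylated forms to a degree that was not tested.

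Most members gave dim signals. The floor used here was the median of all gene probe set values on the 4 arrays, log2 6.75, which is a rank and not a limit of detection. A total of 42 of the 61 members lay under it on all 4 arrays. The other 19 reached it on at least 1 array (31.1% of members, against 60.4% of all genes), and 10 members lay at or above it on every array. On the untreated array 44 members were under the floor, on the dihydroberberine array 44, on the sunitinib array 47 and on the combination array 50. Among all genes the share under the floor was 43.1%, 42.0%, 42.4% and 42.9% on these arrays. The members that reached the floor were 3 of 6 H1 genes, 6 of 15 H2A genes, 5 of 18 H2B genes, 2 of 10 H3 genes and 3 of 12 H4 genes. Just inside it was H2AC15, with 6.75 on the dihydroberberine array as its highest value, and just outside it was H3C12, with 6.62 on the untreated array.

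**Figure D1:**
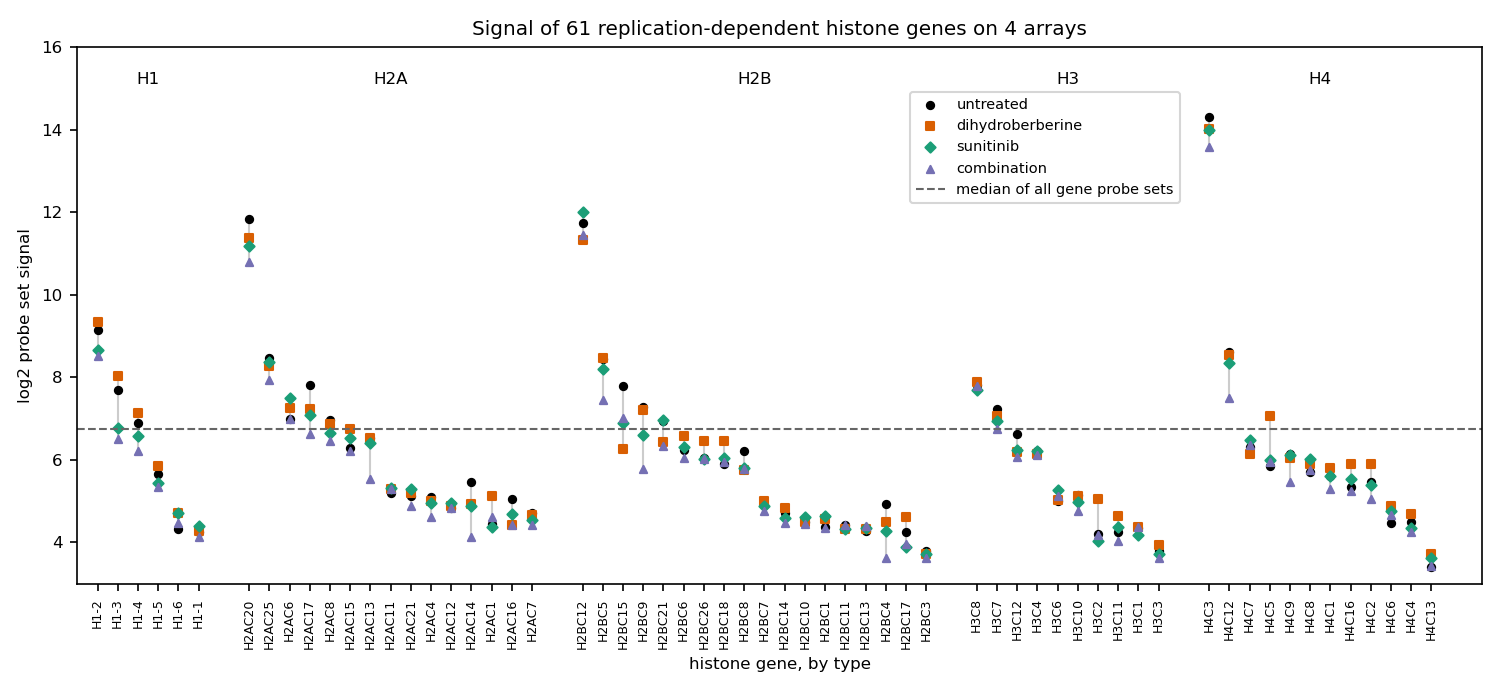
Log2 probe set signal (vertical axis) of the 61 histone genes, grouped by type and ordered by mean, on the 4 arrays, 1 point per array, with the floor as a dashed line. Of the 61 genes, 42 stay under log2 6.75 on all arrays, while H4C3, H2BC12 and H2AC20 lie above 10.

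Some short motifs in the promoters differed in frequency between the histone types. RefSeq's promoter table (GRCh38.p14) held 56 of the 61 members, 18 of the 19 above the floor among them, and the 200 bases before the first listed start of each gene were searched on both strands. Printed here is, for each type, the member that was lowest with both drugs among those above the floor on every array, and H2BC12, whose signal on the sunitinib array was the highest of its 4. They lie at chr6:26056471-26056670 (minus strand) for H1-2, chr1:149886718-149886917 (plus strand) for H2AC20, chr6:26157921-26158120 (plus strand) for H2BC5, chr6:26250636-26250835 (minus strand) for H3C7, chr6:27831561-27831760 (minus strand) for H4C12 and chr6:27146859-27147058 (minus strand) for H2BC12. Each is written 5′ to 3′, with its last base next to the start. Capitals mark matches on either strand to the 5 motifs described after the sequences.
H1-2: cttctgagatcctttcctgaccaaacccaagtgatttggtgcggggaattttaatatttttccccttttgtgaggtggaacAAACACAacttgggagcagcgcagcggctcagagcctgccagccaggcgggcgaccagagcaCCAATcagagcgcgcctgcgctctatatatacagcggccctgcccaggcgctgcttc
H2AC20: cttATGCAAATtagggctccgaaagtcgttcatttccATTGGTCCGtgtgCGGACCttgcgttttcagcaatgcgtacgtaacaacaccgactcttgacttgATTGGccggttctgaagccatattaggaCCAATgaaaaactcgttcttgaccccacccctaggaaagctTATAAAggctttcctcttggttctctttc
H2BC5: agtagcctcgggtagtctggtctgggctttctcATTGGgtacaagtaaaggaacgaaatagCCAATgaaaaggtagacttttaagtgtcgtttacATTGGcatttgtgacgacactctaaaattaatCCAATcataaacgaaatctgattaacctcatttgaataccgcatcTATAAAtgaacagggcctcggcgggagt
H3C7: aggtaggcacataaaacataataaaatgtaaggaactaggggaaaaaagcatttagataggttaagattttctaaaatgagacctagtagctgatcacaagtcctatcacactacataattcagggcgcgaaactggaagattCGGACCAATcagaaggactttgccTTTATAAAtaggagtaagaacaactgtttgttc
H4C12: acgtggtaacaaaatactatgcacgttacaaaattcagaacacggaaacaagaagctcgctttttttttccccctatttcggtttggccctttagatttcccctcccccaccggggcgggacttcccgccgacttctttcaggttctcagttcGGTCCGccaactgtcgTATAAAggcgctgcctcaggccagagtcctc
H2BC12: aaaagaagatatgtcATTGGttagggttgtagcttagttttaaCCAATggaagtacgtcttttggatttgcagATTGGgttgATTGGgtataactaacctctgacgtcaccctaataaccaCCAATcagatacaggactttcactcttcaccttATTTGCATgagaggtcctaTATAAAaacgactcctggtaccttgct

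CCAAT, the letters bound by NF-Y, was found in 49 of the 56 member promoters (87.5%), against 28.9% of all 27305 promoters of the table. It was in every H1, H2A, H2B and H3 promoter held by the table and in 3 of 10 H4 promoters. TATAAA, the letters of the TATA box, was in 31 of 56 (55.4%, against 8.92%). The octamer ATTTGCAT, bound by POU2F1, was in 14 of 18 H2B promoters (77.8%) and 7 of 14 H2A promoters, against 1.32% of all promoters, and in 1 of 8 H3 promoters but no H1 or H4 promoter. The H1 box AAACACA was in 6 of 6 H1 promoters and in no other member, against 3.86% of all promoters. GGTCCG, part of the H4 subtype element bound by HINFP, was in 9 of 10 H4 promoters, against 7.75% of all promoters. GGTCCG was also in 1 H2A, 1 H2B and 1 H3 promoter. Matches overlapped in 4 of the 56 promoters, as in H3C7 and H2AC20, where CCAAT and GGTCCG, read on opposite strands, share letters. The 18 promoters of members above the floor and the 38 of members under it held CCAAT in 88.9% and 86.8% and the octamer in 38.9% and 39.5%, so these letters did not separate bright from dim members. A match is a description of letters and not a measured binding site.

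**Figure D2:**
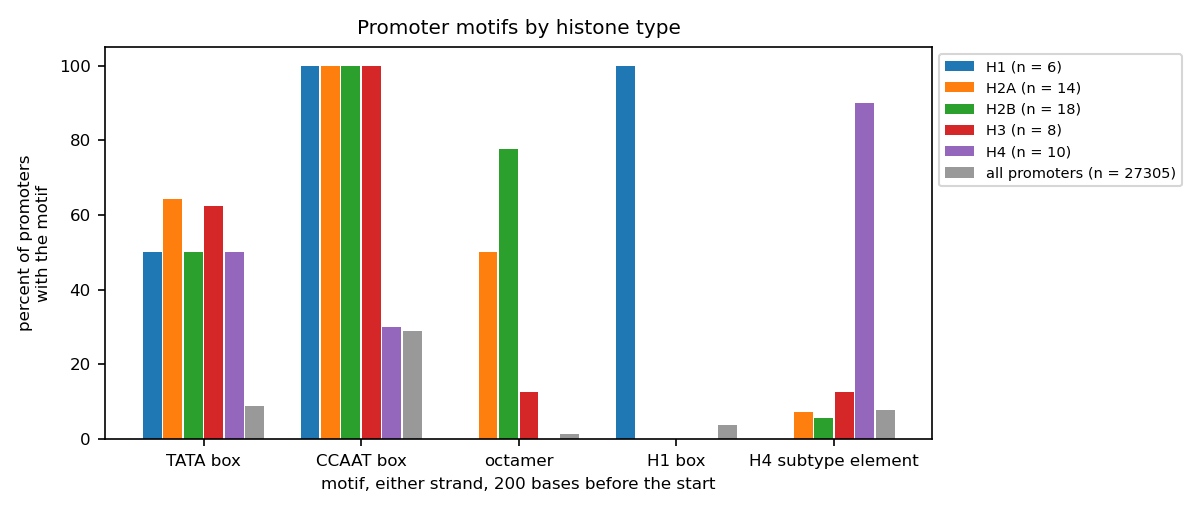
Percent of promoters (vertical axis) with each of 5 motifs in the 200 bases before the start, for the 5 histone types and for all promoters of the table. The H1 box is in 6 of 6 H1 promoters, the octamer in 77.8% of H2B promoters and the H4 subtype element in 9 of 10 H4 promoters.

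In cells given both drugs, most histone transcripts above the floor were lower than in untreated cells. Of the 19 members above the floor, 18 were lower by any size, where 52.7% of the 10958 genes kept by the same filter were lower. Their median log2 difference was -0.62, against -0.02 over all genes kept. At least 2-fold lower were 5 members, H2BC9, H2AC17, H1-3, H4C12 and H2AC20, where 1.5% of all genes kept were, and none was 2-fold higher (1.16% of all genes). At 1.5-fold, 11 members were lower (7.24% of all genes) and 0 higher (6.85%). H2BC5 stood at the threshold, with a log2 difference of -0.9995. H4C5 was the single member with a higher signal, by a log2 difference of 0.10. For H4C5, and for H2AC15 at -0.07, the untreated and combination values both lay under the floor. All 10 members above the floor on every array were lower, with a median of -0.58. H2AC6 and H3C8 among these were nearly level, at -0.01 and -0.02, and the 4 probe sets of H3C8 ran from -0.18 to 0.22. The count of 5 became 3 when values under the floor were raised to it, since H2BC9 and H1-3 then gave at least 1.44-fold and at least 1.90-fold. Of the 11 members past 1.5-fold, H2BC9 then fell short, as did H2BC21 at 1.13-fold and H1-4 at 1.09-fold. Among the 11 members left above the floor by probe sets not marked as shared between genes, the median was -0.9995.

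Sunitinib alone was accompanied by smaller differences in the same direction. Of the 19 members, 14 were lower than untreated (55.6% of all genes kept), with a median of -0.30 against -0.04. None was 2-fold lower (0.584% of all genes) or 2-fold higher (0.21%), and 5 were at least 1.5-fold lower (3.78% of all genes) and 0 higher (1.61%). The 5 were H1-3, H2BC15, H2AC17, H2BC9 and H2AC20. H2BC9 was under the floor with sunitinib, which makes it at least 1.44-fold lower. H2AC6, H2BC12, H2AC15, H4C5 and H2BC21 were higher, by 0.50, 0.28, 0.24, 0.14 and 0.04, with both values of H2AC15 and of H4C5 under the floor.

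Dihydroberberine alone left the histone transcripts divided. Of the 19 members, 11 were lower and 8 higher (53% and 46.9% of all genes kept), with a median of -0.07 against -0.03, so the share lower was near that of all genes. H2BC15 was the member at least 2-fold lower (3.52% of all genes), and H4C5 the member at least 2-fold higher (1.05%). H4C5 reached the floor on the dihydroberberine array alone, and with its other values raised to the floor it was at least 1.24-fold higher, which leaves 0 members 2-fold higher. At 1.5-fold, 2 members were lower (12.6%) and 1 was higher (4.86%). All 3 H1 genes above the floor were higher, by 0.21 to 0.35. The dihydroberberine array also differed in control signals. The median of its 3 18S rRNA probe sets was 13.49, against 14.17, 13.96 and 13.94 on the untreated, sunitinib and combination arrays, and its Alu probe set was at 14.42, against 14.82, 14.86 and 14.86. The median of the background probe sets with 15 to 19 G or C bases was 5.79 there, against 5.45, 5.61 and 5.61. The background median differed from untreated by 0.42 with 20 to 25 G or C bases and by -0.003 with 3 to 14. Over all 23 background probe sets it differed by 0.14. The part of these signals in the histone differences was not tested. The comparisons of sunitinib and of the combination with untreated cells do not use that array, and with a floor set by the other arrays they gave medians of -0.30 and -0.66 over 17 members, a filter chosen after seeing the data.

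The combination was also lower than either drug alone. Against sunitinib, 17 of 19 members were lower (49.2% of all genes kept), with a median of -0.39 against 0.004. Members at least 1.5-fold lower were H4C12, H2BC9, H2BC5 and H2BC21 (4 members, where 1.47% of all genes were). H2BC9 was under the floor on both the sunitinib and the combination array, and H2BC21, raised to the floor, was at least 1.16-fold lower. None of the 19 was 2-fold lower (0.119%), 2-fold higher (0.721%) or 1.5-fold higher (3.58%). Against dihydroberberine, 17 of 19 were lower (50.7%), with a median of -0.53 against -0.01, and 5 were at least 2-fold lower (0.438% of all genes), namely H1-3, H2BC9, H4C5, H4C12 and H2BC5. None was 2-fold higher (2.78%), and at 1.5-fold 9 were lower (2.75%) and 1, H2BC15, higher (10.3%). H4C5 and H2AC15 were kept through their dihydroberberine values alone, so the filter itself favours a lower combination for them. A filter set by the other arrays was chosen after seeing the data. It gave a median of -0.45 over 17 members against dihydroberberine, with 4 at least 2-fold lower. With values raised to the floor H4C5 gave at least 1.24-fold and H2BC9 at least 1.38-fold. The count against dihydroberberine then became 3 in place of 5 (2 where probe sets of a gene are averaged). The medians raised to the floor were -0.32 against dihydroberberine and -0.18 against sunitinib. These comparisons share the combination array, and those with untreated cells share the untreated array, so their counts are not independent of each other. The combination array was the lowest of the 4 for 15 of 19 members, where it was the lowest for 24.1% of all genes kept. For H1-4, H2AC8, H2AC15, H2BC9 and H2BC21 among these, another array was under the floor as well. Which array was lowest for them therefore rests on values under the floor. The untreated array was the lowest for 1 member (24.9%), the dihydroberberine array for 2 (31.1%) and the sunitinib array for 1 (20%). For 8 members, H4C3, H4C12, H2AC20, H2AC25, H2AC17, H2AC8, H2BC9 and H3C7, both single drugs lay below untreated and the combination below both, a pattern shown by 13.6% of all genes kept. Of these 8, H2AC17, H2AC8 and H2BC9 were under the floor on the combination array. The deviation from additivity adds, on the log2 scale, untreated to the combination and takes away each single drug. It was below 0 for 15 of 19 members (42.9% of all genes kept), with a median of -0.23 against 0.06. Over the 10 members above the floor on every array the median was -0.18, with 8 below 0. Genes under the floor on all 4 arrays had a median of -0.17, with 5242 of 7174 below 0, so this measure differed with signal level.

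**Figure D3:**
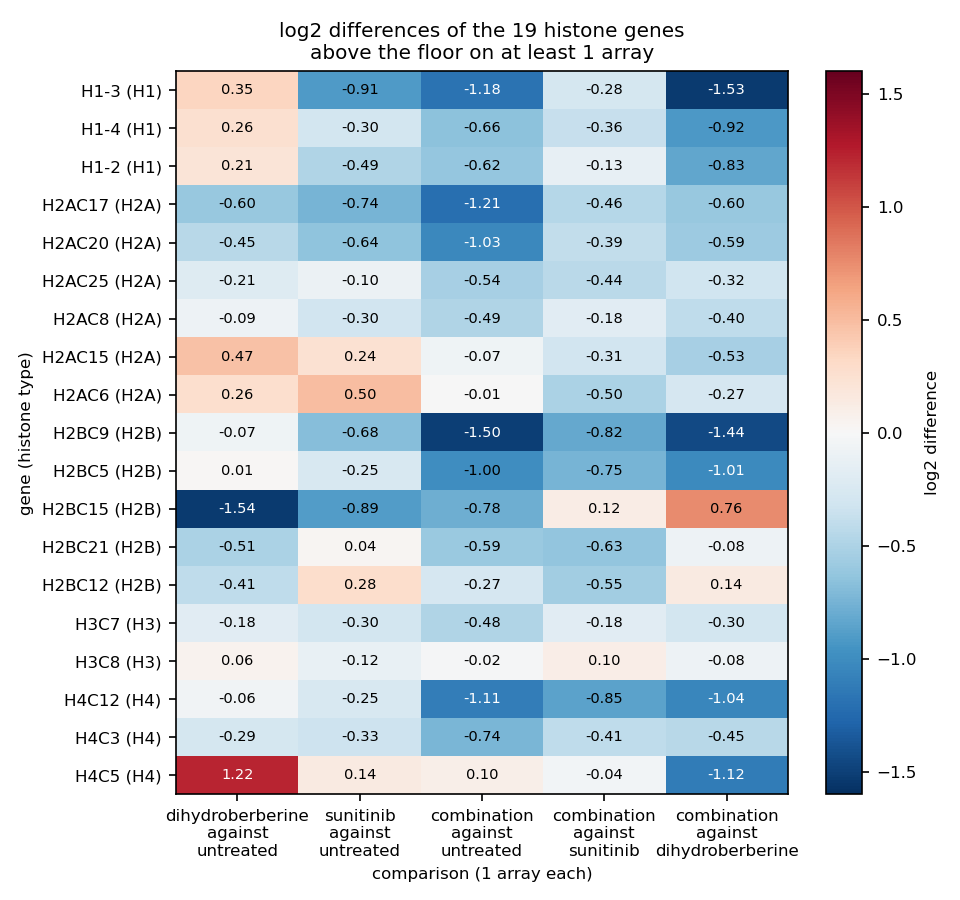
Log2 differences (colour and printed value) of the 19 histone genes above the floor on at least 1 array (rows, with their type) in 5 comparisons of single arrays (columns). The combination against untreated is negative for 18 of 19 genes, while dihydroberberine against untreated is negative for 11 and positive for 8.

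The linker histones H1 bind the DNA between nucleosomes and help to compact chromatin. H1-3 gave 7.68 on the untreated array, 8.03 with dihydroberberine, 6.78 with sunitinib and 6.50 with both. H1-2 gave 9.14, 9.35, 8.65 and 8.52 in the same order, and H1-4 gave 6.88, 7.14, 6.58 and 6.22. All 3 were highest with dihydroberberine, next untreated, then sunitinib, and lowest with both drugs, although H1-4 was under the floor on the sunitinib and combination arrays. Against dihydroberberine the combination was at least 2.42-fold lower for H1-3, 1.78-fold lower for H1-2 and at least 1.31-fold lower for H1-4. The median of the 3 against untreated was 0.26 with dihydroberberine, -0.49 with sunitinib and -0.66 with both. Each H1 gene had a single probe set, so no second reading of it exists on these arrays. H1-1, H1-5 and the testis variant H1-6 were under the floor on all arrays, with highest values of 4.40, 5.86 and 4.72.

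H2A and H2B pair as dimers on the outside of the nucleosome. Among the H2A genes, H2AC20 gave 11.83 untreated, 11.38 with dihydroberberine, 11.19 with sunitinib and 10.80 with both. It was 1.36-fold, 1.56-fold and 2.05-fold lower than untreated, and its second probe set, which was dim, gave nearly equal differences of -0.46, -0.63 and -1.05. H2AC17 gave 7.82, 7.22, 7.08 and 6.62 and had log2 differences from untreated of -0.60, -0.74 and -1.21. Both genes therefore had untreated as the highest array and the combination as the lowest. H2AC6 went another way, with 6.999, 7.26, 7.50 and 6.99, which put sunitinib highest and left untreated and combination nearly level. H2AC25 and H2AC8 were lower than untreated with each treatment, by log2 differences between -0.09 and -0.54. The second probe set of H2AC8, under the floor, gave 0.28 with dihydroberberine, so that sign depends on the probe set. H2AC15 gave 6.29, 6.75, 6.53 and 6.22. It was kept by its dihydroberberine value alone, which is at the floor, and raised to the floor its differences from untreated are 0.0008, 0 and 0. The median over the 6 was -0.15, -0.20 and -0.51 with dihydroberberine, sunitinib and both.

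Among the H2B genes, H2BC9 had values of 7.28 untreated, 7.22 with dihydroberberine, 6.60 with sunitinib and 5.78 with both. The sunitinib and combination values are both under the floor, which makes each at least 1.44-fold lower than untreated. Its 3 probe sets gave between -1.50 and -0.96 for the combination against untreated. H2BC5 gave 8.44, 8.45, 8.19 and 7.44, so that untreated and dihydroberberine were level and the combination stood apart. Its probe sets gave -1.10 to -0.61 for the combination, but did not all have the same sign for either single drug. H2BC12 gave 11.73, 11.32, 12.01 and 11.46, highest with sunitinib and lowest with dihydroberberine. Its other probe set, at 4.89 untreated, gave -0.44 in place of 0.28 with sunitinib, so the direction depends on the probe set. H2BC15 gave 7.79, 6.25, 6.89 and 7.01, lowest with dihydroberberine, where it was at least 2.05-fold lower. H2BC21 gave 6.93, 6.42, 6.97 and 6.34, lower on both arrays with dihydroberberine than on both without. Its other 2 probe sets held identical dim values and gave 0.47 with dihydroberberine, so its direction with that drug depends on the probe set. The median over the 5 was -0.41, -0.25 and -0.78.

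H3 and H4 form the tetramer at the core of the nucleosome. The 2 H3 genes above the floor had differences of -0.02 and -0.48 with both drugs. H3C8 gave 7.82, 7.88, 7.69 and 7.80, and its 4 probe sets gave between -0.18 and 0.22 for the combination against untreated. H3C7 gave 7.24, 7.05, 6.94 and 6.758, with the combination lowest. Its second probe set, at 7.24 untreated and under the floor with each treatment, gave -0.65, -0.76 and -0.94. Of the H4 genes, H4C3 gave 14.31 untreated, 14.02 with dihydroberberine, 13.98 with sunitinib and 13.57 with both. It was 1.22-fold, 1.25-fold and 1.67-fold lower than untreated, and both of its probe sets, which carry the suffix for probes shared between sequences, gave -0.81 and -0.74 for the combination. H4C12 gave 8.61, 8.55, 8.36 and 7.50, so that the combination was 2.15-fold below untreated while the single drugs were 1.04-fold and 1.19-fold below. Its 2 probe sets gave -1.11 and -1.10. H4C5 gave 5.85, 7.06, 5.99 and 5.94. It reached the floor on the dihydroberberine array only, where its 2 probe sets were higher than untreated by 1.22 and 0.49. The median over the 3 H4 genes was -0.06, -0.25 and -0.74.

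**Figure D4:**
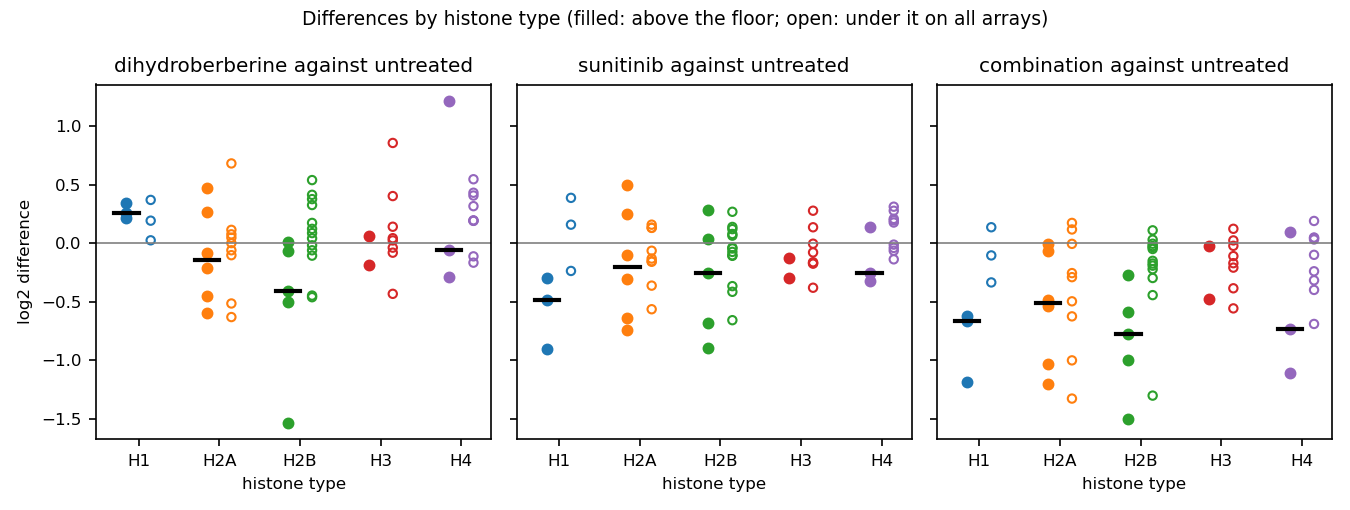
Log2 difference from untreated (vertical axis) of each histone gene by type, with filled points for the 19 genes above the floor on at least 1 array, open points for the 42 under it, and bars for medians over at least 3 filled points. The medians with both drugs are -0.66 for H1, -0.51 for H2A, -0.78 for H2B and -0.74 for H4.

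The 42 dim members are described apart, since their signals lay under the median probe set on every array. With both drugs 31 of them were lower than untreated and 11 higher, with a median of -0.16. Of the 7174 genes of the array that were dim throughout, 43.5% were lower, with a median of 0.03. With sunitinib the median was -0.04 (0.08 over dim genes) and with dihydroberberine 0.08 (0.14 over dim genes). H2AC14, H2BC4 and H2AC13 were at least 2-fold lower with both drugs (3 members, where 0.139% of dim genes were). All of these values are under the floor, with log2 differences of -1.33, -1.30 and -1.001 from untreated signals of 5.45, 4.93 and 6.53. The other probe sets of H2AC13 gave -0.46 and -0.86, and that of H2BC4 gave -0.52, all short of 2-fold. H2AC14 had a single probe set. With dihydroberberine the highest differences were those of H3C2 at 0.855 and H2AC1, a testis H2A gene, at 0.68, and the lowest that of H2AC16 at -0.63. The background probe sets with 15 to 19 G or C bases differed by 0.34, and all 23 background probe sets by 0.14.

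Near-identical copies limit what a probe set can tell about 1 histone gene. Of the 104 probe sets with a single member symbol, 49 carried the suffix _s_at or _x_at, which marks probes shared with other sequences, and 10 of the 19 members above the floor were read by such a probe set. A further 9 probe sets were annotated to several genes, among them at least 1 histone gene of this class, and were not assigned to any. The 4 of these above the floor on all arrays were lower with both drugs than untreated in every case, by log2 differences of -1.19 to -0.16, and lower than with either drug alone, by -1.05 to -0.43 against sunitinib and -1.07 to -0.30 against dihydroberberine. Of the 13 members above the floor with at least 2 probe sets, all probe sets had the same sign in 11 for the combination against untreated, in 10 for sunitinib and in 9 for dihydroberberine. The median SD between probe sets of these members was 0.18, 0.07 and 0.26 on the log2 scale. This spread is between probe sets of the same arrays and says nothing of the error between cultures.

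Many H2A and H2B genes lie head to head and share the stretch between their starts. The promoter table held 11 such pairs among the members, with starts 194 to 248 bases apart, so the motif matches of the partners are in part the same letters. In 2 pairs both genes were above the floor. H2AC20 and H2BC21 on chromosome 1 had log2 differences of -0.45 and -0.51 with dihydroberberine, -0.64 and 0.04 with sunitinib, and -1.03 and -0.59 with both drugs. H2AC15 and H2BC15 on chromosome 6 had 0.47 and -1.54, 0.24 and -0.89, and -0.07 and -0.78. The partners of the first pair had the same sign with dihydroberberine and with both drugs by the probe sets used. H2BC21 was under the floor on both of those arrays, at 6.42 and 6.34. Its other 2 probe sets gave 0.47 with dihydroberberine, so the shared sign with that drug depends on the probe set. In the second pair the signs were opposite with each single drug, but the H2AC15 values lie at or under the floor and set no direction. Of the 18 members above the floor that the promoter table places, which leaves out H4C3, the 15 on chromosome 6 had a median of -0.62 with both drugs and the 3 on chromosome 1 one of -0.59.

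Genes that make, process or deposit histones did not show one common pattern. Among 35 genes of histone transcription and mRNA processing the median was 0.00 with dihydroberberine, -0.01 with sunitinib and 0.00 with both, and 1 gene was 2-fold lower with both drugs. SLBP, the stem-loop binding protein, gave 11.45, 10.69, 11.45 and 11.13 in untreated, dihydroberberine, sunitinib and combination cells. NPAT, the coactivator of histone loci, gave 6.65 in untreated cells and was higher by 0.35, 0.51 and 0.63 in the others. LSM11, part of the U7 particle that cleaves histone messages, gave 8.09, 8.43, 7.31 and 7.38, which set the arrays with sunitinib below those without. CASP8AP2, needed for histone gene expression, was higher with sunitinib by 0.65 and ERI1, an exonuclease of histone messages, by 0.59. With dihydroberberine WDR33, a polyadenylation factor, was 1.30 higher, while PCF11 and SRRT, which act in transcript ends and capped RNA, had -1.27 and -1.24. PCF11 was under the floor on the dihydroberberine array, at 6.61, as NPAT was on the untreated array. SLBP and NPAT, like H3-3B, CDKN1A and CCNE1 among the genes that follow, lay outside the naming rule and were picked out after their values were seen.

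Histone chaperones, which carry histones to DNA, had medians over 21 genes of -0.26 with dihydroberberine, -0.16 with sunitinib and -0.20 with both. HIRA, which deposits the replacement form of H3, had log2 differences of -2.19, -0.62 and -0.72, and ASF1B, an H3-H4 chaperone of dividing cells, -1.35, -0.32 and -1.22. CHAF1A, the large subunit of the replication-coupled assembly factor, had -0.93, -0.22 and -0.51. The list of histone variants grouped here as replication-independent had 8 genes above the floor, with medians of -0.40, -0.18 and -0.29. Whether the messages of all 8, H2AX among them, are independent of replication was not tested. Of these H2AX, the variant phosphorylated at DNA breaks, had -1.75, -0.36 and -1.13, CENPA, the histone of centromeres, -0.70, -0.30 and -0.29, and H3-3B, a replacement H3, 0.11, 0.10 and 0.26.

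Genes of S-phase entry and DNA synthesis had medians over 27 genes of -0.48 with dihydroberberine, -0.13 with sunitinib and -0.44 with both. With both drugs 21 were lower than untreated (52.7% of all genes kept), 4 of them at least 2-fold (1.5%), while CDKN1A, an inhibitor of cyclin-dependent kinases, was 1.07 higher. CDT1, a licensing factor, had -0.69, -0.73 and -1.29, and MCM2, a subunit of the replicative helicase, -0.75, -0.57 and -1.10. CCNE2, a cyclin of S-phase entry, had -1.38 with dihydroberberine and 0.10 with sunitinib. Its value with dihydroberberine, 6.11, lies under the floor, so the size of that difference is uncertain. CCNE1, of the same list, had -0.23 with dihydroberberine, 0.19 with sunitinib and 0.39 with both. In the combination against dihydroberberine the S-phase list had a median of 0.04, with 12 of 27 lower. The histone members had -0.53, with 17 of 19 lower, H2AC15 and H4C5 among them being kept through the dihydroberberine array alone. Over the 10 histone members above the floor on every array the median was -0.39, with 9 lower. Raised to the floor, the 19 had -0.32. Of the S-phase genes, 26 were above the floor on every array. In dihydroberberine against untreated the 2 lists had medians of -0.48 and -0.07. Whether these lists differ beyond the spread between cultures cannot be tested with 1 array per group.

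**Figure D5:**
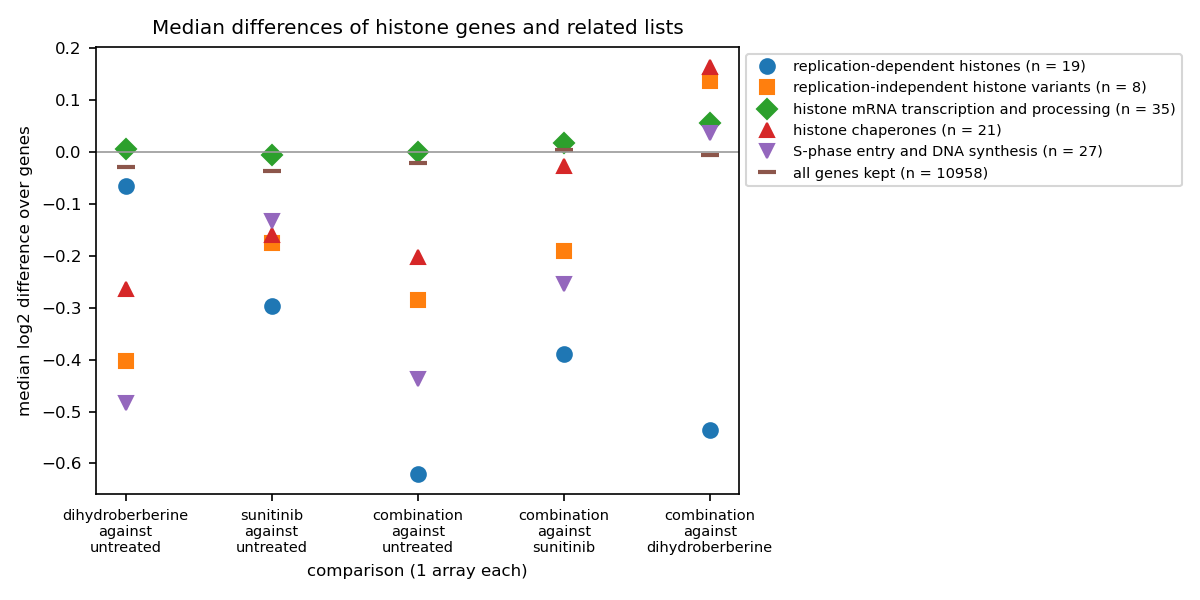
Median log2 difference (vertical axis) over the genes of each list above the floor, in 5 comparisons of single arrays (horizontal axis), with the median of all genes kept as a dash. Of the 5 lists drawn, the histone genes have the lowest median in the combination against untreated, at -0.62. Against dihydroberberine they are at -0.53 (-0.39 over the 10 above the floor on all arrays), where the S-phase list is at 0.04.

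Of 9 markers of A549 and lung epithelium on the array, 7 were above the floor on all arrays, and CDH1 and EPCAM, both epithelial adhesion molecules, were under it on all 4. Of 10 markers of leukocytes, endothelium and fibroblasts, 7 were under the floor on all arrays. CD14, a monocyte receptor, was above it on the untreated array only, at 8.82, against 6.75, 6.27 and 5.76. VWF, an endothelial protein, was above it on all arrays, with 7.29, 7.50, 7.39 and 7.28, and PDGFRB, a receptor of fibroblasts, on 3 arrays, with 7.44, 6.96, 6.90 and 6.71. The medians of these 10 markers ran from 5.78 to 6.22 on the 4 arrays, and their part in the histone differences was not tested. Fewer cells in S phase and less histone RNA per cell cannot be told apart in bulk RNA.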

How the data were processed

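Per the labels' protocols, total RNA was taken with TRIZOL, cleaned on a column with DNase, and given a biotin label from an IVT Express kit for the 3′ end. The authors deposited log2 probe set values, and per the submitters' processing notes the software was Affymetrix Expression Console. For the summarization method, the software version and the scaling, the sources used here give nothing. The values themselves set the scale as log2. An Agilent array is named in the design text, while the probe set names are those of an Affymetrix array. Array medians lay between 6.73 and 6.76.

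The table held 49293 gene probe sets, of which 44988 had 1 symbol in the platform annotation, 1832 several and 2473 were unnamed here. No member symbol had to be updated through its gene identifier (0 of 104 probe sets). RefSeq lists 69 coding genes whose symbols follow the rule, and 8 of them were no members. Genes with at least 1 array at or above the floor were kept, 10958 in all. Differences were taken between log2 values of single arrays, and counted at 2-fold and 1.5-fold. Where an array was under the floor, "at least" folds raise it to the floor. Named members were the 4 highest and 4 lowest in each comparison, the extremes of each type and all H1 genes. Members and lists were chosen with earlier results of these data known. The counting was checked on simulated data. Python 3.11.15, pandas 2.3.3 and numpy 2.4.6 were used. Alternatives were other probe set rules, floors and fold sizes and quantile normalization.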

Additional observations from a re-analysis of the deposited data

Results flagged for a closer look

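Some members moved in opposite directions for the same drug depending on whether the other drug was present. The limit was the median SD between probe sets of a gene over all genes and comparisons (0.12 on the log2 scale). Among the 13 members above the floor with at least 2 probe sets, that SD was larger for dihydroberberine against untreated, at 0.26. The differences of H1-2, H1-4 and H2AC6 with dihydroberberine alone, at 0.21, 0.26 and 0.26, do not clearly exceed it. These differences rest on single arrays and were not tested. For dihydroberberine this held for 5 of 19 members above the floor, where it held for 14.2% of all genes kept. With values raised to the floor it held for 2, H1-2 and H2AC6 (12.8% of all genes kept), so the directions of H1-3, H1-4 and H2AC15 rest on values under the floor. H1-2 differed from untreated by 0.21 with dihydroberberine, and by -0.13 when dihydroberberine was added to sunitinib. H1-3 had 0.35 and -0.28, H1-4 0.26 and -0.36, H2AC6 0.26 and -0.50, and H2AC15 0.47 and -0.31 in the same comparisons. For sunitinib it held for 4 of 19 members (16.5% of all genes kept), and with values raised to the floor for 2, H2AC6 and H2BC15 (14.9%). H2AC6 differed from untreated by 0.50 with sunitinib, and by -0.27 when sunitinib was added to dihydroberberine. H2AC15 had 0.24 and -0.53, H4C5 0.14 and -1.12, and H2BC15 -0.89 and 0.76. H2AC15 and H4C5 reach the floor on the dihydroberberine array alone, so their differences with sunitinib alone lie wholly under it. All of these pairs use the dihydroberberine array in 1 of the comparisons.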

How the results depend on the processing

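No paired analysis was possible because each group held 1 array, and no array could be left out as a replicate. Values count as moved when they shift by more than 0.12 (log2), and counts by more than 1.5 times; the cause was not tested except where fewer genes remained. The median of the combination against untreated over members, and those by type, stayed below 0 under each setting that gave one.

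With the mean of all probe sets (14 members) the medians were -0.22 with dihydroberberine and -0.78 with both drugs; 0 members were 2-fold higher with dihydroberberine and 2 were 2-fold lower in the combination against it. H2A medians were -0.33, -0.37 and -0.79 for dihydroberberine, sunitinib and both, and H2B -0.22 with dihydroberberine. H2BC12 turned to -0.081 with sunitinib and -0.21 in the combination against dihydroberberine, and H2BC21 to 0.14 with dihydroberberine. Without _s_at and _x_at probe sets (11 members) the median with both drugs was -0.9995, 0 members were 2-fold higher or lower with dihydroberberine and 3 were lower in the combination against it; H2A medians were -0.45, -0.64 and -1.03, and H2B -0.24 and -0.11 for the single drugs.

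At the 75th percentile floor (4 members) the dihydroberberine median was -0.35, with 0 members past 2-fold in either direction, and 1 was 2-fold lower with both drugs and 0 in the combination against dihydroberberine. With no floor (61 members) medians were -0.080 with sunitinib, -0.24 with both, and -0.18 and -0.34 in the combination against sunitinib and dihydroberberine, and 8 members were 2-fold lower with both. H1 medians were then -0.27 and -0.48 with sunitinib and both, H2B -0.0028, -0.061 and -0.21, and H4 0.19, 0.063 and -0.17 for dihydroberberine, sunitinib and both, so H4 turned sign with either single drug. The median of all members with dihydroberberine then turned from -0.066 to 0.042. Over all genes it turned likewise, from -0.03 over those kept to 0.05 over all 18132. The other medians over all 18132 genes were 0.01 with sunitinib, 0.006 with both, and -0.02 and -0.06 against sunitinib and dihydroberberine. At least 2-fold lower with both drugs were 174 of them. Genes under the floor on all arrays had medians of 0.14 with dihydroberberine and 0.08 with sunitinib.

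Raised to the floor, medians in the combination were -0.18 against sunitinib and -0.32 against dihydroberberine, 3 members were 2-fold lower against untreated and 3 against dihydroberberine, and 0 were higher with dihydroberberine, as also without the dihydroberberine array in the filter (0). At 1.5-fold the lower counts were 2, 5, 11, 4 and 9 in the order dihydroberberine, sunitinib and both against untreated, and both against sunitinib and dihydroberberine, where 1 was higher. These 1.5-fold counts use values under the floor as deposited, and some of their members fall short when raised to it. Quantile normalization moved the H2A median with sunitinib to -0.32. At the median of the background probe sets 3 members were under the floor in place of 42. Type medians under 3 members were not taken.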
